A study of Rattus norvegicus with 12 samples.

Results

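The circadian clock genes Nr1d1, Nr1d2, Dbp, Tef, Per1, Per2, Per3, Cry1, Npas2 and Noct were followed in the livers of rats with diet-induced fatty liver. These 10 genes, picked by gene name, are 10 of the 16558 genes in the joined count tables, and all 10 passed the filter on low counts that left 12355 genes for testing. The animals were Sprague Dawley rats, an outbred laboratory stock, and RNA from their livers was sequenced in 4 groups of 3 libraries. In arm D and arm G the rats had the high-fat diet that induces the disease and didymin, a flavonoid glycoside of citrus fruit, at different doses. Which letter stands for which dose is not stated, so no dose is given for either. Model rats had the high-fat diet for 8 weeks and no didymin, and normal rats had saline. The sources used here give neither the sex nor the age of the rats, nor the time of day at which liver was taken, so no value below is a phase or an amplitude. The libraries are D.1, D.4 and D.7, G.1, G.3 and G.4, M.5, M.6 and M2.1, and N.1, N.2 and N.3, and per-library values are given in that order.

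In mammals the clock of each cell is a loop of transcription. BMAL1 (gene Arntl) pairs with CLOCK or its relative NPAS2 and switches on, through E-box sites, the Per and Cry genes, whose proteins then inhibit the pair. The same activators switch on Nr1d1 and Nr1d2, whose products REV-ERBα and REV-ERBβ repress Arntl, Npas2 and Nfil3 through ROR elements. They also switch on Dbp, a PAR bZIP factor that, with TEF and HLF, activates D-box genes, while NFIL3 represses the same sites. In rodent liver, transcripts of Nr1d1 and Dbp therefore peak many hours apart from those of Arntl and Npas2, and this clock is tied to lipid and bile acid metabolism.

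Libraries held 12469914 to 15521648 counts, and 13582 to 14591 genes had at least 1 count. The 13 mitochondrial genes took 3.85% to 18.9% of the counts in 10 libraries, but 44.1% in M.6 and 61.0% in G.3. Summed over all 8 hepatocyte markers, level was lowest in those same libraries (76246 and 47094 CPM, against 144630 to 192320 elsewhere), and no hepatocyte marker was at 0 in any group. CPM here is a read count scaled to library size, with the TMM correction for differences in library composition. M2.1 is named unlike the other model columns, and the labels do not say why. Because M.6, G.3 and M2.1 stand apart in these ways, values without them are given for some of the results that they move.

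RefSeq promoter sequences on the rat assembly GRCr8, from 250 bases before to 50 bases after a gene's start, were available for 9 of the 10 members, all but Cry1. They are shown for the members with a canonical clock element and for Arntl, since clock factors are known to act through these elements. Both strands were searched for the E-box CACGTG, its variant CACGTT (E′-box), the D-box TTATGTAA and the ROR half-site TAGGTCA, letter strings that cannot coincide with each other in place. Nr1d1 has 2 listed starts. At one the E-box begins 191 bases before the start, and at the other, not shown, an E′-box begins 174 bases before it. Tef has an E-box that begins 198 bases before its start. Per2 has a D-box at 192 bases and an E′-box at 62 bases before its start. Arntl, which RefSeq lists as Bmal1, has a ROR half-site at 16 bases before its start. Nr1d2, Dbp, Per1, Per3, Npas2 and Noct had none of these letters in this window. Of all 33469 promoters in the table, 6.42% held the E-box, 4.83% the E′-box, 0.893% the D-box and 2.63% the ROR half-site. A match describes the sequence and is not a shown binding site. In the sequences, written 5′ to 3′ on the strand of the gene, capitals mark these elements.
Nr1d1, chr10:84229405-84229704, minus strand: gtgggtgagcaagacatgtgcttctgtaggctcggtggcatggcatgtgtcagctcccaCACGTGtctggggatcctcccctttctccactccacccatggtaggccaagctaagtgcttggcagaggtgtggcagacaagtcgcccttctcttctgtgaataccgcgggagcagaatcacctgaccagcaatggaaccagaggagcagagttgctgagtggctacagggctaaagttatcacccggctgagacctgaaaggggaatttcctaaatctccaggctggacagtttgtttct
Tef, chr7:115206577-115206876, plus strand: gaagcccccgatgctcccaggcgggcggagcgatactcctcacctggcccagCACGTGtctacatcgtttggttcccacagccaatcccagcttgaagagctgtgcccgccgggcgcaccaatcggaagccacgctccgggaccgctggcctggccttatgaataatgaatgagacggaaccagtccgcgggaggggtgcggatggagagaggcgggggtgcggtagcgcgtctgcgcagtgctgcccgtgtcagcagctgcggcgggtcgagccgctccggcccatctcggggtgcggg
Per2, chr9:99496944-99497243, minus strand: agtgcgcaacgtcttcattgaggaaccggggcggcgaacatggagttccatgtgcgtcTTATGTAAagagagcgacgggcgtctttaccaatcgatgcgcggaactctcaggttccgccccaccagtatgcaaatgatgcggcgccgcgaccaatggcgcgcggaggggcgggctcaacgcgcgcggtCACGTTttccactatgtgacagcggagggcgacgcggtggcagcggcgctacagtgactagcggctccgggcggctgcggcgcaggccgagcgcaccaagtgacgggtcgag
Arntl, chr1:176766078-176766377, plus strand: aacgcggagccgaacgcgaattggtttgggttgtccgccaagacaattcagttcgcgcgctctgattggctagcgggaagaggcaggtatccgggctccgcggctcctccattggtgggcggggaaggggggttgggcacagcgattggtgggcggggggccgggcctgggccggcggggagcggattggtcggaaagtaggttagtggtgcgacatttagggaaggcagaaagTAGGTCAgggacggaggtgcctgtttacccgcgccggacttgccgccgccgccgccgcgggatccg

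Between arm D and the model, the members differed in both directions. Nr1d1, Nr1d2 and Dbp were higher in arm D, and Npas2, Cry1 and Noct were lower, with no overlap between the groups, while Tef, Per1, Per2 and Per3 overlapped. In arm G only Nr1d1 stood above every model library. Between model and normal livers Per2, Dbp and Npas2 were higher in the model and Nr1d2 was lower, again without overlap. None of these differences passed an adjusted p of 0.05 in the quasi-likelihood test of edgeR, which called 0.0% of the 12355 genes in each of 7 comparisons. The unadjusted p and the overlap of libraries are therefore given, each beside its share over all genes tested. Members were chosen with earlier results of these data known, so their counts are a description. Markers of Kupffer cells and macrophages and of sinusoidal endothelium were also higher in arm D than in the model. An unadjusted p under 0.05 was found for 8 of 8 (median log2FC 1.44) and 3 of 6 (median 0.55), where 6.28% of all genes passed. The part of these cells in the member values was not tested. In bulk tissue fewer cells of a type and less RNA per cell cannot be told apart.

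Against the model, 4 of 10 members had an unadjusted p under 0.05 in arm D, where 6.28% of all genes did, and 6 of 10 did not overlap between the groups, where 12.6% of all genes did not. In arm G against the model 2 of 10 passed by unadjusted p, where 2.32% of all genes passed. There 1 of 10 did not overlap between the groups, where 4.69% of all genes did not. For both arms averaged and set against the model they were 5 of 10 (4.61% of all genes) and 1 of 10 (2.1%). These comparisons share the 3 model libraries, so their values are given side by side and not counted as separate evidence. The model against normal gave 3 of 10 by unadjusted p (4.91% of all genes) and 4 of 10 without overlap (10.5%). Arm G against arm D, the test of whether the arms differed from each other, gave 0 of 10 (3.42%) and 2 of 10 without overlap (7.43%). Arm D against normal gave 2 of 10 (6.34%) and 6 of 10 without overlap (16.8%). Arm G against normal gave 2 of 10 (6.59%) and 1 of 10 without overlap (10.6%).

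**Figure D1:**
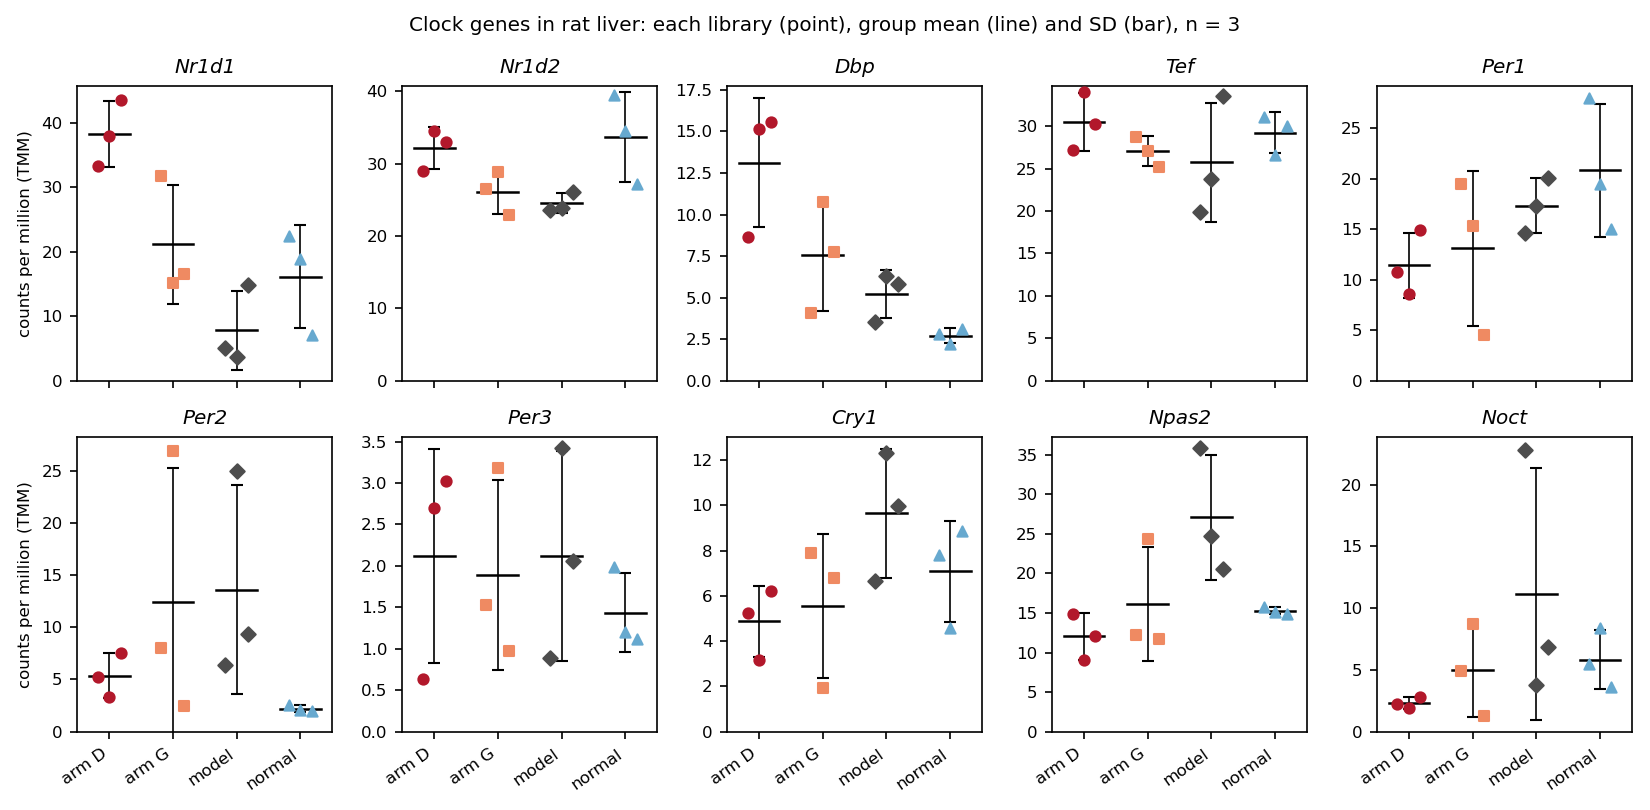
TMM-scaled CPM of the 10 clock genes in each library, with arm D, arm G, model and normal from left to right; points are libraries, lines are means and bars are the SD of 3 libraries. Nr1d1 in arm D (33.3 to 43.6 CPM) lies above every other library, Npas2 is highest in the model, and Per2 has 1 library far above the rest in arm G (26.9 CPM) and in the model (25.0 CPM).

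Nr1d1, which encodes the repressor REV-ERBα, had 33.3, 37.9 and 43.6 CPM in arm D. It had 31.8, 15.2 and 16.6 CPM in arm G, 5.02, 3.69 and 14.9 CPM in model livers and 22.4, 18.9 and 7.16 CPM in normal livers. Every arm D library was thus above every library of the other groups, every arm G library was above every model library, and model and normal overlapped through M2.1 and N.3. The log2 fold change (log2FC) of arm D over the model was 2.27 ± 0.54 (SE), a 4.81-fold difference, with an unadjusted p of 0.00125 and an adjusted p of 0.783. In arm G over the model it was 1.42 ± 0.53, with an unadjusted p of 0.0206 and an adjusted p of 0.9997. The model over normal gave −1.02 ± 0.53 (unadjusted p = 0.0766). Arm G minus arm D was −0.85 ± 0.52 (unadjusted p = 0.128), so the arms were not shown to differ. Much of the spread lay in M2.1, without which the log2FC was 3.13 for arm D over the model, 2.28 for arm G over the model and −1.89 for the model over normal. Other libraries moved it the other way. Arm D over the model was 1.93 without M.6, and arm G over the model was 0.99 without G.1. With the mitochondrial share as a covariate the model over normal was −0.53.

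Of the 21 alternative settings, only DESeq2 called Nr1d1 in arm D over the model. The authors' deposited table, on the same libraries, also called it and is not separate evidence. DESeq2 on the same counts called 14 genes between arm D and the model (0.113% of those it tested), and Nr1d1 was one of them, with an adjusted p of 0.0411. In the authors' deposited table of arm D over the model the log2FC of Nr1d1 is 2.25 with an adjusted p of 0.0410, one of 7 called of 16059 genes listed (0.0436%). The authors' deposited table of arm G over the model lists Nr1d1 at 1.39 with an adjusted p of 0.9999, and calls 1 of 15941 genes (0.00627%). Nr1d1 overlaps Thra, a thyroid hormone receptor gene on the other strand, and whether the counting used strand is not stated, so reads in the overlap cannot be told apart. Thra had 7.95, 8.78 and 8.47 CPM in arm D, 9.26, 9.75 and 6.72 CPM in arm G, 4.70, 6.39 and 13.5 CPM in the model and 9.73, 9.85 and 8.20 CPM in normal livers. Its log2FC was 0.03 ± 0.35 for arm D over the model (unadjusted p = 0.937), although M2.1 had the highest Thra level as well as the highest Nr1d1 level of the model.

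Nr1d2, which encodes the related repressor REV-ERBβ, varied over a narrower range. It had 29.0, 34.5 and 33.0 CPM in arm D, 26.6, 28.8 and 22.9 CPM in arm G, 23.7, 23.9 and 26.1 CPM in the model and 39.4, 34.5 and 27.1 CPM in normal livers. All model libraries lay below all arm D and all normal libraries, and arm G overlapped the model and normal libraries. The log2FC was 0.39 ± 0.21 for arm D over the model (unadjusted p = 0.0873) and −0.46 ± 0.21 for the model over normal (unadjusted p = 0.05001). Its groups ordered as for Nr1d1 apart from normal, which was highest in mean for Nr1d2 (33.7 ± 6.19 CPM, SD, n = 3) and below both arms for Nr1d1 (16.1 ± 7.98 CPM). In the order of its means, arm D, at 32.2 ± 2.85 CPM, was above arm G, at 26.1 ± 3.003 CPM, without overlap, while normal and arm D overlapped, as did arm G and the model, at 24.6 ± 1.33 CPM.

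Npas2, a partner of BMAL1 and a target of REV-ERBs, ran the other way. It had 14.9, 9.06 and 12.1 CPM in arm D, 12.3, 24.4 and 11.7 CPM in arm G, 35.9, 24.7 and 20.6 CPM in the model and 15.8, 15.1 and 14.9 CPM in normal livers. The model libraries were above all arm D and all normal libraries, and of arm G only G.3, the library with 61.0% mitochondrial counts, reached into their range. The log2FC was −1.17 ± 0.33 for arm D over the model (unadjusted p = 0.00389, adjusted p = 0.783) and −0.75 ± 0.33 for arm G over the model (unadjusted p = 0.0402, adjusted p = 0.9997). Without G.3 arm G over the model gave −1.16, and without M.5 it gave −0.50. In the model over normal it was 0.83 ± 0.33 (unadjusted p = 0.0266, adjusted p = 0.866), or 0.49 with the mitochondrial share as a covariate.

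The other activators were flatter. Clock, the partner of BMAL1, had 40.7, 33.7 and 35.3 CPM in arm D, 41.0, 37.1 and 43.2 CPM in arm G, 47.2, 50.3 and 65.2 CPM in the model and 55.5, 50.5 and 44.6 CPM in normal livers. Both arms lay below all model and all normal libraries. Its log2FC was −0.57 ± 0.21 for arm D over the model (unadjusted p = 0.0183) and −0.42 ± 0.21 for arm G over the model (unadjusted p = 0.0653). Arntl had 24.5, 17.4 and 17.3 CPM in arm D, 33.5, 28.2 and 25.0 CPM in arm G, 19.9, 26.3 and 34.7 CPM in the model and 29.97, 34.3 and 26.4 CPM in normal livers. Arm D was below normal without overlap, at −0.62 ± 0.26 (unadjusted p = 0.0338), and arm G minus arm D was 0.55 ± 0.26 (unadjusted p = 0.053), also without overlap.

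Dbp, the PAR bZIP factor of the output arm of the clock, was lowest in normal livers and highest in arm D. It had 8.66, 15.1 and 15.6 CPM in arm D, 4.09, 10.8 and 7.76 CPM in arm G, 3.56, 6.30 and 5.80 CPM in the model and 2.82, 2.22 and 3.13 CPM in normal livers. Normal livers lay below all 9 other libraries, arm D lay above the model and normal, and arm G overlapped both arm D and the model. The log2FC of arm D over the model was 1.33 ± 0.39 (unadjusted p = 0.00518, adjusted p = 0.783), and that of the model over normal was 0.94 ± 0.40 (unadjusted p = 0.0358). Arm G over the model gave 0.52, and 0.19 without G.3. Arm D over normal was 2.27 ± 0.41, a 4.81-fold difference with an unadjusted p of 0.000108 and an adjusted p of 0.274, the smallest p but 3 of all genes in that comparison. DESeq2 gave it an adjusted p of 0.000167 there and called 84 genes (0.681% of those tested), and limma-voom with quality weights gave 0.00251 and called 941 (7.62%). Arm G over normal was 1.46 ± 0.40 (unadjusted p = 0.00323), where DESeq2 called 51 genes (0.413%) but not Dbp (adjusted p = 0.122), and arm G minus arm D was −0.81 ± 0.39 (unadjusted p = 0.0586).

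Tef, another PAR bZIP factor, was nearly level, with 27.2, 34.0 and 30.2 CPM in arm D, 28.7, 27.1 and 25.2 CPM in arm G, 19.9, 23.8 and 33.5 CPM in the model and 31.1, 26.6 and 30.1 CPM in normal livers. Its log2FC ran between −0.18 and 0.24 over the comparisons, every pair of groups overlapped, and its smallest unadjusted p was 0.310. Hlf, the remaining PAR bZIP factor, also overlapped in each comparison. Nfil3, the repressor at D-boxes, had 52.8, 49.2 and 46.1 CPM in arm D, 115, 181 and 89.5 CPM in arm G, 68.3, 125 and 34.1 CPM in the model and 51.2, 74.7 and 57.9 CPM in normal livers. Arm G was above arm D and normal without overlap, and the model overlapped both arms. Arm G minus arm D was 1.38 ± 0.41 (unadjusted p = 0.00545, adjusted p = 0.999), the smallest p among the clock genes in that comparison, and it was 1.04 without G.3.

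**Figure D2:**
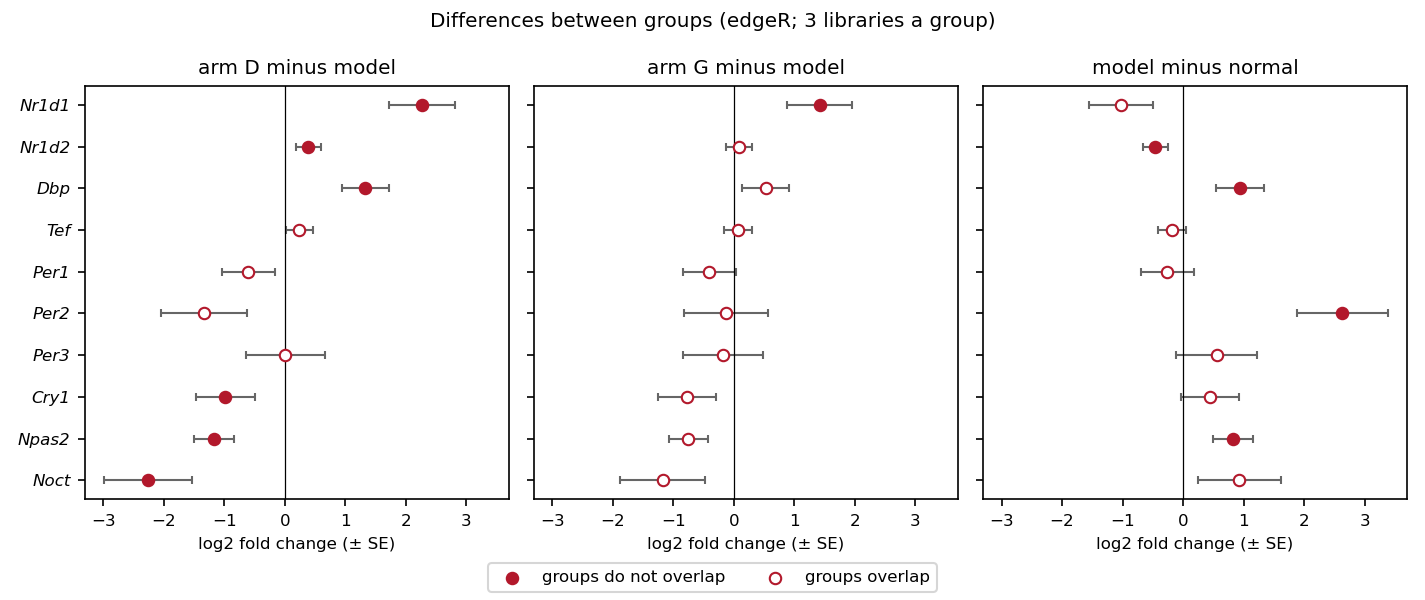
Log2 fold change with its SE for the 10 clock genes in arm D over the model, arm G over the model and the model over normal; filled points mark genes whose 2 groups of 3 libraries do not overlap. Nr1d1 is 2.27 and 1.42 in the arms and −1.02 in the model over normal. Npas2 is −1.17 and −0.75 in the arms and 0.83 in the model over normal. Dbp is positive in all 3, least in arm G over the model (0.52, and 0.19 without G.3, not drawn).

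Per2, a repressor of the loop and a gene also induced by glucocorticoids and heat in rodents, had the largest difference of the members between model and normal livers. It had 5.25, 3.33 and 7.56 CPM in arm D, 7.98, 26.9 and 2.49 CPM in arm G, 6.40, 25.0 and 9.38 CPM in the model and 2.56, 2.04 and 1.94 CPM in normal livers. All 3 model libraries, and all of arm D, lay above the normal range, while the highest library of the model was M.6 and that of arm G was G.3. The model over normal log2FC was 2.63 ± 0.75, a 6.195-fold difference, with an unadjusted p of 0.00427 and an adjusted p of 0.745. DESeq2 called 41 genes in that comparison (0.332%) but not Per2, whose adjusted p was 0.0618. The authors' deposited table, of normal over model, lists Per2 at −2.63 with an adjusted p of 0.00196, among 53 called of 15929 (0.333%). Without M.6 the model over normal value was 1.85, with the mitochondrial share as a covariate it was 1.80, and arm G over normal, at 2.495 ± 0.75, was 1.27 without G.3.

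Across the 12 libraries Per2 went with the mitochondrial share, with Pearson's r of 0.71 (permutation p = 0.0099, adjusted over the 10 members 0.099) and Spearman's rho of 0.45 (permutation p = 0.140, adjusted 0.351). Without the 2 libraries farthest from the median share r was 0.13, so the relation rests on those libraries. The part of the mitochondrial share in the Per2 values was not tested beyond this. Hspa8, a heat shock protein gene, was also highest in M.6 and G.3, at 69.5 and 44.0 CPM, against 3.18 to 13.5 CPM in the other libraries, and its model over normal value of 2.13 ± 0.92 (unadjusted p = 0.0395) was 0.34 without M.6.

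Per1, a repressor of the loop like Per2, had 10.8, 8.61 and 14.9 CPM in arm D, 19.4, 15.3 and 4.57 CPM in arm G, 14.7, 17.3 and 20.1 CPM in the model and 28.0, 19.5 and 15.0 CPM in normal livers. The arms overlapped the model, and the arm G over model value of −0.41 ± 0.44 was −0.01 without G.4. Arm D was just below normal without overlap (log2FC −0.87 ± 0.44, unadjusted p = 0.0724). Per3 was the member with the fewest reads, 9 to 50 counts a library, at 0.64, 2.70 and 3.03 CPM in arm D, 1.53, 3.18 and 0.97 CPM in arm G, 0.89, 3.42 and 2.06 CPM in the model and 1.99, 1.202 and 1.12 CPM in normal livers. Its groups overlapped in every comparison, and a difference of the size of its SE, 0.65 to 0.67, could not be resolved with 3 libraries a group. The 3 Per genes had different orders of group means.

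Cry1, which encodes a repressor that acts with the PER proteins, had 5.25, 3.16 and 6.23 CPM in arm D, 7.92, 1.93 and 6.79 CPM in arm G, 6.64, 12.3 and 9.98 CPM in the model and 7.81, 4.57 and 8.87 CPM in normal livers. Arm D was below every model library by a small gap between D.7 and M.5. The log2FC was −0.98 ± 0.48 for arm D over the model (unadjusted p = 0.0630) and −0.78 ± 0.48 for arm G over the model (unadjusted p = 0.128). Over the settings run, the arm G over model value ran from −1.12 without G.1 to −0.17 without M.6 and G.3. For the mean of both arms the log2FC was −0.88 ± 0.40 (unadjusted p = 0.0480), and −0.46 without M.6 and G.3.

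Noct, which encodes the rhythmic phosphatase nocturnin, had 2.20, 1.89 and 2.84 CPM in arm D, 4.92, 8.73 and 1.25 CPM in arm G, 22.8, 3.78 and 6.89 CPM in the model and 5.44, 8.41 and 3.65 CPM in normal livers. Arm D lay below all model and all normal libraries, arm G reached from below arm D to above normal, and M.5 alone was far above the rest. The log2FC of arm D over the model was −2.26 ± 0.72 (unadjusted p = 0.00828, adjusted p = 0.783), and −1.21 without M.5. Arm G over the model was −1.18 ± 0.70 (unadjusted p = 0.115), and −0.13 without M.5. The model over normal was 0.93 ± 0.69 (unadjusted p = 0.200), and again −0.13 without M.5.

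Phase-linked genes were then set beside each other in 2 sets. One holds the genes that peak with or soon after Nr1d1 in rodent liver (Nr1d1, Nr1d2, Dbp, Tef, Per1, Per2, Per3, Usp2 and Hlf, with 9 tested). The other holds genes of the opposite side (Npas2, Cry1, Arntl, Clock and Nfil3, with 5 tested). Ciart and Bhlhe41, at no more than 0.454 and 0.344 CPM, did not pass the filter. In arm D over the model, 6 of the 9 were higher with a median log2FC of 0.12, and 0 of the 5 were higher with a median of −0.62, against a median of −0.04 over all genes, 5773 of them higher and 6582 lower. In arm G over the model, 5 of the 9 (median 0.03) and 2 of the 5 (median −0.42) were higher, with a median over all genes of 0.00052. In the model over normal, 5 of the 9 (median 0.08) and 4 of the 5 (median 0.31) were higher, with a median over all genes of 0.03. Within the first set the medians hide opposite values. Nr1d1 and Dbp were higher in arm D than in the model, while Per1, Per2 and Usp2 had negative values, at −0.60, −1.33 and −0.87. Per2 was −0.53 without M.6 and G.3. Usp2 had 2.98, 2.29 and 3.87 CPM in arm D and 1.05, 3.60 and 11.9 CPM in the model. Only M2.1 of the model was above the arm D range of Usp2. Arm G minus arm D had 2 of the 9 and 5 of the 5 higher, with medians of −0.19 and 0.42 (all genes −0.01).

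**Figure D3:**
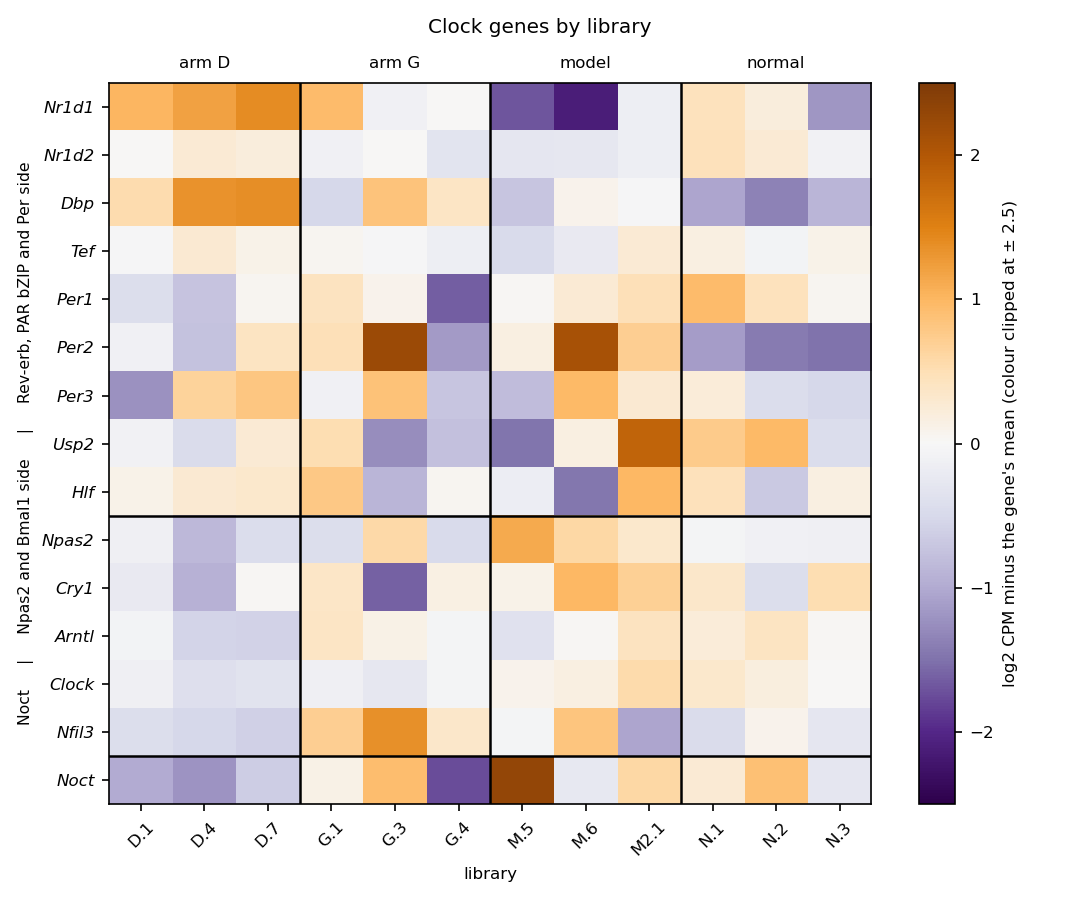
Log2 CPM of each clock gene in each library minus the gene's mean over the 12 libraries, with arm D, arm G, model and normal from left to right, and with the Nr1d1 side above the first line, the Npas2 side below it and Noct at the bottom. Arm D is high for Nr1d1 and Dbp and low or near the mean for the 5 genes of the Npas2 side, and the normal libraries are low for both Dbp and Per2.

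Per library, the mean log2 CPM of the first set minus that of the second was −1.41, −0.70 and −0.65 in arm D, −1.50, −1.43 and −2.05 in arm G, −2.37, −2.16 and −1.30 in the model and −1.51, −1.85 and −2.09 in normal livers. The difference was highest in D.4 and D.7, while D.1 lay close to M2.1, G.1 and G.3. As a ratio within a library, log2 Nr1d1 minus log2 Npas2 was 1.15, 2.05 and 1.84 in arm D, 1.36, −0.68 and 0.50 in arm G, −2.80, −2.70 and −0.46 in the model and 0.50, 0.31 and −1.04 in normal livers. Arm D was above the model and normal in this ratio, and G.1 lay within the range of arm D. Log2 Dbp minus log2 Per1 was −0.31, 0.81 and 0.06 in arm D, −2.21, −0.50 and 0.75 in arm G, −2.00, −1.44 and −1.77 in the model and −3.25, −3.05 and −2.21 in normal livers. The Dbp to Per1 ratio thus fell into separate ranges in arm D, model and normal, and arm G ran from the edge of the normal range into that of arm D. The zero of such ratios has no meaning, since genes differ in length, and they were chosen with the levels known and have no test.

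Over the 12 libraries no pair of members passed a permutation test adjusted over all 45 pairs, for r, for rho or for values centred within groups. Of the 45, 23 had a positive and 22 a negative r, and 7 had an unadjusted p under 0.05. Npas2 and Noct had the highest r, 0.79 (permutation p = 0.00261, adjusted 0.0974), with rho of 0.82 (permutation p = 0.0017, adjusted 0.0765). It was 0.55 without M.5 and D.4, the libraries farthest out in Npas2, and 0.68 within groups (permutation p = 0.135, adjusted 0.566). Nr1d1 and Npas2 had the lowest r, −0.76 (permutation p = 0.00433, adjusted 0.0974), with rho of −0.77 (permutation p = 0.00551, adjusted 0.124). It was −0.52 without M.6 and M.5 and −0.37 within groups (permutation p = 0.268, adjusted 0.592), so it was smaller within groups and without those libraries. With 1 library left out a pair passed the adjusted test in 3 cases, Npas2 with Noct without M.6 (r = 0.86, permutation, adjusted p = 0.0306), Nr1d1 with Npas2 without N.3 (−0.83, adjusted p = 0.0491) and Per1 with Noct without M.5 (0.82, adjusted p = 0.0486).

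Nr1d1 went with Tef (r = 0.63, permutation p = 0.0291, adjusted 0.270, rho 0.55 with permutation p = 0.0674, adjusted 0.379) but only at r = 0.14 without M.6 and M.5. With Nr1d2 it had r = 0.61 (permutation p = 0.0360, adjusted 0.270, rho 0.66 with permutation p = 0.0218, adjusted 0.299), or 0.40 without those libraries, and 0.63 within groups. For Nr1d1 and Dbp, the pair of targets that were both high in arm D, r was 0.42 (permutation p = 0.176, adjusted 0.456), with rho of 0.43 (permutation p = 0.162, adjusted 0.446). It was 0.51 without M.6 and M.5, and −0.25 within groups (permutation p = 0.461, adjusted 0.865). Both genes were thus high in arm D and were not shown to vary together from library to library. Per2 and Per3 had r = 0.57 (permutation p = 0.0525, adjusted 0.295, rho 0.61 with permutation p = 0.0394, adjusted 0.299), or 0.23 without G.3 and M.6, and Per1 and Per2 had r = 0.22 (permutation p = 0.508, adjusted 0.693, rho 0.20 with permutation p = 0.525, adjusted 0.718), or 0.24 without G.4 and N.1. Within groups r was 0.65 for Per2 and Per3 (permutation p = 0.0566, adjusted 0.562), 0.69 for Per1 and Per2 (permutation p = 0.152, adjusted 0.566) and 0.57 for Nr1d1 and Tef (permutation p = 0.214, adjusted 0.566). The only pairs with an unadjusted within-group p under 0.05 were Dbp with Per3 (0.71, permutation p = 0.0478, adjusted 0.562) and Nr1d2 with Per3 (0.63, permutation p = 0.0151, adjusted 0.562).

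**Figure D4:**
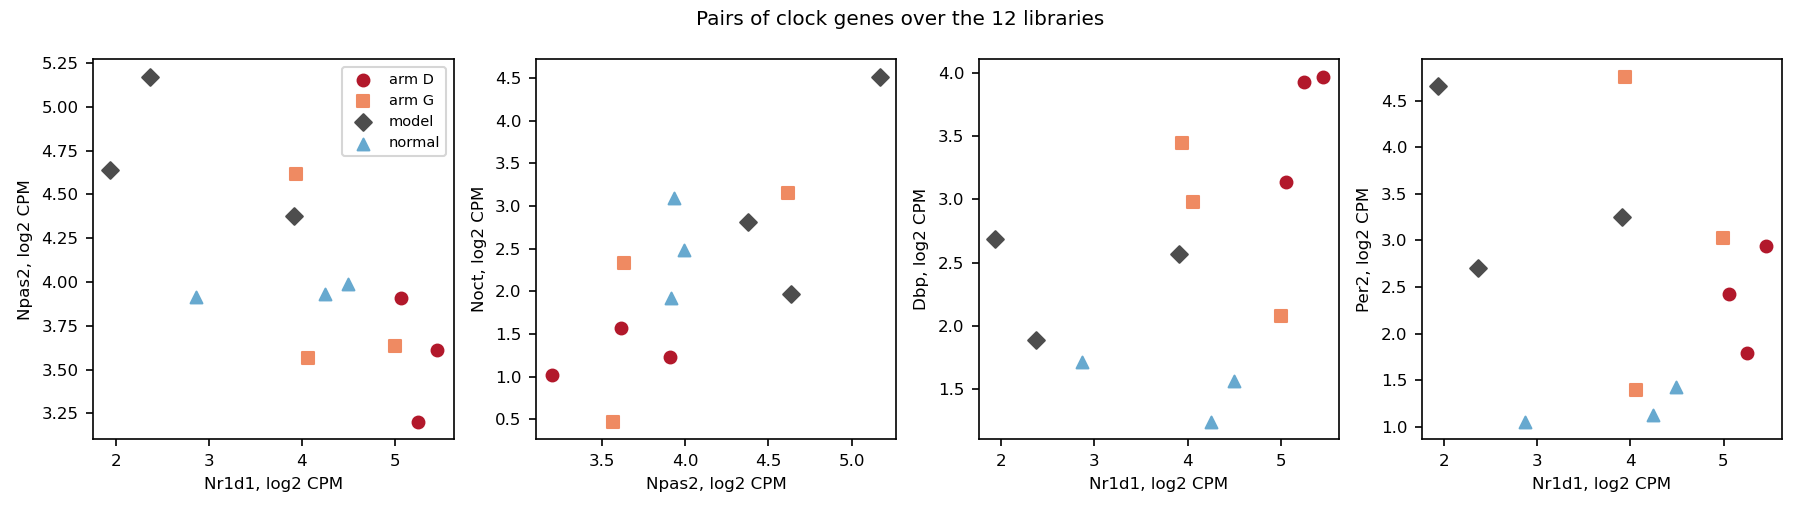
Log2 CPM of Npas2 against Nr1d1, Noct against Npas2, Dbp against Nr1d1 and Per2 against Nr1d1, with a point per library and a colour and symbol per group. Npas2 is lower where Nr1d1 is higher (r = −0.76), with arm D at the right and the model at the left, while Dbp and Nr1d1 (r = 0.42) do not follow one line, and the normal libraries are low in Dbp at middle Nr1d1.

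**Figure D5:**
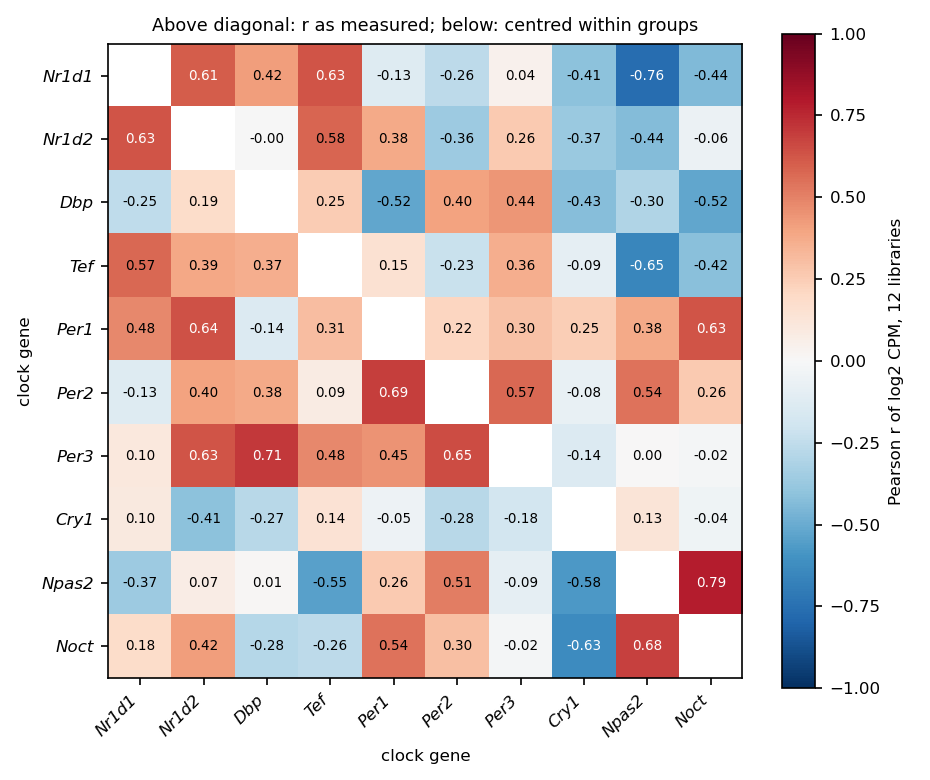
Pearson's r of log2 CPM over the 12 libraries for each pair of the 10 clock genes, as measured above the diagonal and with values centred within groups below it. The largest values as measured are Npas2 with Noct (0.79) and Nr1d1 with Npas2 (−0.76), and Nr1d1 with Npas2 is −0.37 after centring.

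As a description, the r of each member was also ranked among all 12354 other tested genes. By r with Nr1d1, Npas2 was number 102 from the bottom, Tef 702 and Nr1d2 820 from the top, and Dbp 2517 from the top. Per3, Per1 and Per2 were 6086, 7454 and 8516 from the top, and Noct and Cry1 were 2175 and 2465 from the bottom. With values centred within groups, Npas2 was 4194 from the bottom, and Nr1d2, Tef and Dbp were 2563, 2926 and 7456 from the top. By r with Npas2, Noct was number 100 from the top, or 985 with values centred within groups. Among the genes most like Nr1d1 over the 12 libraries were Rnf114 (r = 0.94), Elf4 (0.91), Mmrn2 (0.90) and Ap1b1 (0.90), and the most unlike were Optn (−0.90), Riok3 (−0.89), Hectd2 (−0.89), Zc3h14 (−0.87) and Abhd18 (−0.86). Most like Npas2 were Ltbp4 (0.93), Dcun1d4 (0.91), Rnf111 (0.89), Zc3h11a (0.89) and Gckr (0.88), and most unlike were Mtch1 (−0.93), Fli1 (−0.91), Lfng (−0.90), Nxn (−0.90) and Sla (−0.90). No other clock gene was among these.

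In the remaining core clock genes (12 listed, 8 tested), the only unadjusted p under 0.05 of a single arm against the model was that of Clock in arm D, and there was none in the model over normal or in arm G over the model. For arm G over the model the smallest p were those of Clock, Nfil3 (0.76 ± 0.41, unadjusted p = 0.0832) and Arntl2 (−1.57 ± 0.88, unadjusted p = 0.0996). Arntl2 had few reads, with 6, 1 and 6 counts in arm G and 8, 1 and 38 in the model, the 38 in M2.1. For the model over normal they were those of Rora (−0.62 ± 0.45, unadjusted p = 0.196), Bhlhe40 (−0.71 ± 0.68, unadjusted p = 0.319) and Nfil3 (0.30 ± 0.40, unadjusted p = 0.465). Against normal, Rora (an activator at ROR elements), Arntl and Clock were lower in arm D, at −1.16 ± 0.46, −0.62 ± 0.26 and −0.46 ± 0.21, without overlap. Limma-voom with quality weights, which called 7.62% of all genes there, called all 3 of these, with adjusted p of 0.0111, 0.0123 and 0.0237, and Nr1d1, at 0.0291. In arm G over normal Nfil3 was higher (1.07 ± 0.41, unadjusted p = 0.0218), or 0.59 with the mitochondrial share as a covariate, and Bhlhe40, a repressor at E-boxes, was lower (−1.73 ± 0.71, unadjusted p = 0.0296), or −1.02 without N.1. Of the 10 listed kinases and ligases that act on clock proteins, such as Csnk1d and Csnk1e, 0 had an unadjusted p under 0.05 in any of the 7 comparisons. The smallest p among them was 0.0701, for Prkaa2, a subunit of the energy sensor AMPK, at −1.52 ± 0.77 in arm D over normal. Csnk1e was 0.49 ± 0.27 in arm D over the model (unadjusted p = 0.0926).

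Among rhythmic liver outputs (18 listed, 16 tested), Upp2 and Cyp7a1 stood out by unadjusted p. Upp2, a uridine phosphorylase with a strong daily rhythm in rodent liver, had 11.1, 23.3 and 11.02 CPM in arm D, 23.7, 7.37 and 10.8 CPM in arm G, 2.51, 5.13 and 5.75 CPM in the model and 14.0, 22.2 and 10.6 CPM in normal livers. The model was below every other library. Its log2FC was 1.76 ± 0.50 in arm D over the model (unadjusted p = 0.00427), 1.64 ± 0.50 in arm G over the model (unadjusted p = 0.00646) and −1.80 ± 0.50 in the model over normal (unadjusted p = 0.00371). Without G.1 the arm G value was 1.02. Cyp7a1, the enzyme that opens and limits the main route from cholesterol to bile acids, had 165, 166 and 63.6 CPM in arm D, 88.1, 110 and 100.5 CPM in arm G, 81.5, 71.4 and 204 CPM in the model and 42.8, 25.5 and 25.3 CPM in normal livers. All 9 libraries on the high-fat diet were above normal, with a log2FC of 2.07 ± 0.46, 1.67 ± 0.46 and 1.93 ± 0.46 in arm D, arm G and the model, and the groups on the diet overlapped. Without M2.1 the model value was 1.29, and DESeq2 called it with all libraries (adjusted p = 0.0185). The authors' deposited table of normal over model, on the same libraries, called 53 of 15929 genes (0.333%). Among them were Cyp7a1 at −1.94 (adjusted p = 0.0232) and Upp2 at 1.80 (adjusted p = 0.0369). No setting run here called Upp2 in that comparison. In arm D over the model Ppara, a lipid-sensing nuclear receptor, was lower (−1.52 ± 0.68, unadjusted p = 0.0454), but was −0.45 without M2.1. Over all 16, 4 were higher and 12 lower in arm D than in the model (median −0.18), 7 and 9 in arm G (median −0.11), and 8 and 8 in the model over normal (median 0.05).

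Glucocorticoids and temperature also act on Per1 and Per2 in rodents, so genes responsive to them were set beside the members. Of 9 glucocorticoid-responsive genes tested (10 listed), 0 had an unadjusted p under 0.05 in either arm over the model. The smallest were those of Zbtb16 (−1.80 ± 0.96, unadjusted p = 0.0852), Tsc22d3 (−0.88 ± 0.50, unadjusted p = 0.102) and Lcn2 (1.09 ± 1.04, unadjusted p = 0.315) in arm D. In arm G they were those of Sgk1 (−0.75 ± 0.38, unadjusted p = 0.0728), Tsc22d3 (−0.57 ± 0.49, unadjusted p = 0.270) and Pck1 (0.54 ± 0.50, unadjusted p = 0.309). In the model over normal Fkbp5, a glucocorticoid-induced chaperone, was lower (−0.84 ± 0.32, unadjusted p = 0.0238), as was Pck1 (−1.15 ± 0.51, unadjusted p = 0.0428), and Cdkn1a was higher (1.29 ± 0.54, unadjusted p = 0.0347). With the mitochondrial share as a covariate Fkbp5 was −0.56 and Pck1 −0.51. In arm D over normal Zbtb16, Tsc22d3 and Fkbp5 were lower, at −2.96 ± 0.97, −1.48 ± 0.50 and −0.74 ± 0.32. The immediate-early genes Fos, Junb and Egr1, from a list of cold, heat and serum responsive genes (10 listed, 9 tested), were higher in both arms than in every model library. In arm D over the model they had a log2FC of 2.08 ± 0.63, 1.30 ± 0.35 and 0.96 ± 0.44, and in arm G over the model of 1.94 ± 0.63, 1.73 ± 0.35 and 1.34 ± 0.44. Junb had the smallest unadjusted p of all genes in arm G over the model, 0.000346 (adjusted p = 0.9997), and DESeq2, which called 5 genes there (0.0405% of those tested), gave it an adjusted p of 0.0192. Without D.1 the arm D values of Fos and Egr1 were 1.26 and 0.51, and without G.1 the arm G value of Egr1 was 0.88. Cirbp and Rbm3, cold-induced RNA-binding proteins, had no unadjusted p under 0.05 in any comparison. Over all 9 genes tested of this list, 5 were higher and 4 lower in arm D than in the model (median 0.16). In arm G over the model 8 were higher and 1 lower (median 0.46).

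Marker sums of other liver cells were set beside these values. Between arm D and the model, only those of sinusoidal endothelium and of T, NK and B cells did not overlap. The 6 measured markers of sinusoidal endothelium summed to 234.7 to 273.1 CPM in arm D, 181.3 to 226.2 in arm G, 149.7 to 197.1 in the model and 188.0 to 242.9 in normal livers, and no marker was at 0 in a group. Those of Kupffer cells and macrophages (8 of 8) summed to 369.0 to 1145 CPM in arm D, 251.7 to 564.0 in arm G, 170.8 to 397.8 in the model and 388.1 to 553.8 in normal livers. Those of T, NK and B cells (6 of 6) summed to 9.75 to 11.8 CPM in arm D, 7.03 to 19.3 in arm G, 3.90 to 9.63 in the model and 3.07 to 8.73 in normal livers. In arm D over the model, where 6.28% of all genes had an unadjusted p under 0.05, all 8 Kupffer cell and macrophage markers did. All 8 were higher (median log2FC 1.44), although their sums overlapped between the groups. Of the 6 endothelial markers 6 were higher, 3 of them with an unadjusted p under 0.05 (median 0.55). Of 5 lymphocyte markers tested 4 were higher and 0 had an unadjusted p under 0.05. In arm G over the model the 8 Kupffer cell and 6 endothelial markers were all higher (medians 0.61 and 0.36). Of them 0 had an unadjusted p under 0.05, and 2 of the 5 lymphocyte markers had one, where 2.32% of all genes did. The part of these cells in the clock values was not tested. Erythroid markers (4 of 4) were highest in D.1, M.6 and G.3, at 1266, 1248 and 1458 CPM. Stellate cell markers (6 of 6) summed to 64.9 to 100.4 CPM in arm D, 65.2 to 96.1 in arm G, 69.5 to 90.5 in the model and 92.7 to 137.1 in normal livers. Cholangiocyte markers (5 of 5) summed to 22.0 to 38.5 CPM in arm D, 23.1 to 36.0 in arm G, 12.3 to 41.0 in the model and 18.1 to 30.4 in normal livers. Of 6 markers of pancreas, fat and muscle 3 were measured, at 8.57 to 53.6 CPM summed, with Plin1 at 0 in both arms and the model.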

How the data were processed

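Total RNA of rat liver was extracted with Trizol and made into 12 libraries with a NEBNext Ultra kit, per the labels' protocols. The authors deposited 3 tables, each joining a group with the model, with read counts per gene, their own log2 fold changes and their p-values and adjusted p-values. Per the submitters' processing notes, DESeq2 and a mouse build, mm9, were named for this rat series, with no role stated. For the aligner, the counter, the rat annotation and the use of strand, the entry is: not given in the sources used here. The tables were joined by gene name into 16558 genes, of which 14408 names equalled a current rat symbol and 747 only a synonym. A further 36 columns of per-sample values were not used, because their names could not be tied to the labels.

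Columns lettered N, M, D and G were matched to groups by name, and the labels do not tie libraries to animals. The p-values of the group comparisons set a difference between group means against the spread of libraries within groups. That spread may be technical. Counts were tested with edgeR 4.0.16 (quasi-likelihood, TMM, the default low-count filter, one fit over the 4 groups) in R 4.3.3, with Benjamini-Hochberg adjustment over 12355 genes and a threshold of 0.05. The coefficient of biological variation was 0.409. Levels are TMM-scaled CPM, and log2 values use a prior count of 2. Correlations used 100000 permutations in NumPy 2.4.6, with the ranks for rho from SciPy 1.17.1. The scripts were tested on simulated data. Alternatives were RLE scaling, DESeq2 1.42.0, limma-voom 3.58.1 with and without quality weights, no filter, mitochondrial genes left out or as a covariate, only the compared groups, and each library left out.

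The members and all lists were chosen with earlier results of these data known. Named were the members, every gene of the phase sets, genes of the other lists with an unadjusted p under 0.05 against the model or for the model over normal (otherwise those with the smallest p), and the 5 genes at each end of the correlation with Nr1d1 and Npas2. Some genes that this rule covers are not reported here. Genes named for the comparisons with normal are a selection.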

Additional observations from a re-analysis of the deposited data

Results flagged for a closer look

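Nfil3, the repressor at D-boxes, lay on opposite sides of both the model mean and the normal mean in the didymin arms, with every arm G library above and every arm D library below, measured on log2 CPM. The log2 fold change of arm G over arm D was 1.38 ± 0.41 (SE), with an unadjusted p of 0.00545 and an adjusted p of 0.999 in edgeR, so the difference did not pass the correction. It was higher in 3 of 3 arm G libraries than in 3 of 3 arm D libraries. The model libraries overlapped both arms, and the part of library quality in the value was not tested.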

How the results depend on the processing

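The edgeR call count of 0 in each comparison became, with DESeq2, 41 genes for the model over normal, 14 for arm D over the model, 5 for arm G over the model, 6 for both arms over the model, 5 for arm G over arm D, 84 for arm D over normal and 51 for arm G over normal. Limma-voom with quality weights called 6 for the model over normal, 941 for arm D over normal and 47 for arm G over normal. With no filter 3 genes were called for the model over normal and 1 for arm G over arm D, without M.6 and G.3 together 1 for the model over normal, and with only the compared groups 2 for arm D over normal. Leaving out 1 library gave 0 to 6 calls for the model over normal and 0 to 1 for both arms over the model, arm G over arm D and arm G over normal. It gave 0 to 1 called pairs of members, namely Nr1d1 with Npas2 at r = −0.83 without N.3, Per1 with Noct at 0.82 without M.5 and Npas2 with Noct at 0.86 without M.6. Of 96 log2 fold changes 85 kept their sign in every setting run. With 1 library left out, the model over normal value ran from −0.1277 to 1.335 for Noct and −0.4553 to 0.005999 for Per1. Arm D over the model ran from −0.353 to 0.5093 for Per3, which was −0.02484 with limma-voom and −0.01186 with only the compared groups. Arm G over the model ran from −1.355 to 0.6367 for Per2, −0.7379 to 0.312 for Per3 and −0.08694 to 0.3084 for Tef. Arm G over arm D ran from −0.1422 to 0.5783 for Cry1, −0.01648 to 0.5963 for Npas2, −0.2219 to 0.587 for Per1, −0.05021 to 1.657 for Per2 and −0.7832 to 0.1423 for Per3. There, Npas2 was −0.0166 and Per2 −0.05021 without M.6 and G.3, Per1 was −0.02938 with limma-voom and −0.2233 with quality weights, and Per2 was −0.09277 with quality weights. The cause of these changes was not tested. No paired analysis was possible because the count columns carry numbers that are not the replicate numbers of the labels. Members with few reads, such as Per3, also carry counting noise, and the 3 libraries a group limit all of them.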
